A study of Rattus norvegicus with 11 samples.

Results

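Lymphocyte genes were followed in dorsal root ganglia, the clusters of sensory neuron cell bodies beside the spinal cord, of rats with and without a nerve injury. The set was a list of 37 genes of T cells, natural killer (NK) cells and B cells, taken by symbol from the deposited expression table of 16811 genes. Of the 37, 34 had a row, and Il2rb, Icos and Cd79a were not analysed here. A gene was tested when 3 or more of the 11 libraries reached 10, which held for 23 members and for 12087 genes of the whole table. Cd3e, Cd8b, Cd28 and Nkg7 lay just inside, with 3 such libraries, and Cd3g and Cd27 just outside, with 2. The other 11 were Cd3g, Gzma, Gzmk, Klrd1, Ncr1, Gata3, Ctla4, Cd27, Cd79b, Ms4a1 and Pax5.

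The groups, all of Sprague-Dawley rats, were ligated ganglia of the left side with UNC0638 given after the ligation (SNL plus UNC0638, n = 3), ligated ganglia of the left side (SNL, n = 4) and sham-operated ganglia of the right side (Sham, n = 4). Spinal nerve ligation is a standard model of neuropathic pain, and UNC0638 inhibits the histone H3 lysine 9 methyltransferases G9a and GLP. Ligation and side cannot be told apart between SNL and Sham. UNC0638 without ligation was not analysed here, nor was a ligated vehicle group labelled as such. The labels do not say that the libraries came from separate animals, so p-values measure the spread between these libraries.

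T cells recognise antigen through a receptor that signals through the CD3 proteins, and the coreceptors CD4 and CD8 divide them into helper and cytotoxic classes. Cytotoxic T cells and NK cells kill target cells with perforin, which opens membranes, and granzymes, proteases that enter through the pores. B cells carry the receptor parts CD79a and CD79b and the surface protein CD20 (Ms4a1). T cells are known to enter dorsal root ganglia after nerve injury in rodents.

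Values are gene counts that the authors had scaled by 1 factor per library, called scaled counts here. Their totals were 9450045 to 10027314 in SNL plus UNC0638, 9986076 to 10632484 in SNL and 10804530 to 11347920 in Sham libraries. The step between low values puts the depth at an estimated 6127881 to 24367805 reads, so that 1 read was worth 0.429 to 1.56 scaled counts. SNL plus UNC0638 replicate 1 stood apart: 12 skeletal muscle genes summed to 81921 in it, against 153 to 576 in the other 10 libraries. Summed neuronal genes were 146498 to 229436 in SNL plus UNC0638, 177854 to 239206 in SNL and 359258 to 420887 in Sham libraries, which fits the labelled tissue. In these bulk samples fewer cells of a type and less RNA per cell cannot be told apart. Fold changes are log2 values of the scaled count plus 1 from limma, with Benjamini-Hochberg adjustment over the 12087 genes and a threshold of 0.05.

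Granzyme B and perforin act together but are shown here because they moved apart under UNC0638, as described below. Their promoters are given from 250 bases before to 50 after the start, from RefSeq on GRCr8, a later build than the rn4 used for the counts. Capitals mark matches on either strand to TGTGGT (the core bound by RUNX factors), TGANTCA (AP-1) and AGGAAG (ETS factors).

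Gzmb, chr15:34462420-34462719, minus strand: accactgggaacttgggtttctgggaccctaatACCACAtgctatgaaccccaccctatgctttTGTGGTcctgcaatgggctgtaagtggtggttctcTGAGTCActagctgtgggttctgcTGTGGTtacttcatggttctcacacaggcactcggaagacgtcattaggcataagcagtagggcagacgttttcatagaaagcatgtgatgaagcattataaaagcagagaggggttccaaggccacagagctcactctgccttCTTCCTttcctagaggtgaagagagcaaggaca

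Prf1, chr20:29788790-29789089, plus strand: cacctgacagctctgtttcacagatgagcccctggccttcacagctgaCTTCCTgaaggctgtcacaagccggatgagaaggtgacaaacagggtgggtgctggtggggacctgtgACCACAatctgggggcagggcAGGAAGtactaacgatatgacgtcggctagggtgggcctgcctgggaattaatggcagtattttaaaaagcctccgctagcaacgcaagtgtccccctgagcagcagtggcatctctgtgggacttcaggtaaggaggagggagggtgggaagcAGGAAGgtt

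The Gzmb window held 3 RUNX, 1 AP-1 and 1 ETS match, and the Prf1 window held 1 RUNX, 0 AP-1 and 3 ETS matches. Of the 37 members, 27 had a promoter in the RefSeq table, where the first listed was taken for each gene. The RUNX motif was in 10 of these 27 windows and in 16.9% of all 27457 promoters, the AP-1 motif in 2 of 27 and in 7.33%, and the ETS motif in 16 of 27 and in 34.3%. A T-box motif, AGGTGT, was searched as well. It had 0 matches in the Gzmb and Prf1 windows and was in 5 of 27 and in 13.4%. A match describes the letters and does not show binding.

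Against Sham, SNL ganglia had higher values of 18 of the 23 tested members and a lower value of 1, Il7r. Cd3d, Zap70, Cd28 and Foxp3 did not pass the test. Among all genes tested, 48.2% were called, 24.8% higher and 23.4% lower in SNL than in Sham. The groups did not overlap for 17 members that were higher and 1 that was lower, against 22.1% and 21.2% of all genes. The median log2 fold change was 1.84 over the tested members and -0.0033 over all genes. For 13 of the 23, every Sham library was under 10, so that these genes were tested because the ligated groups were high, and the count describes the members without supporting a difference. Of the 8 members that reached 10 in at least 3 Sham libraries, 5 were higher, 1 was lower and 2 did not pass.

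The CD3 genes encode the signalling chains of the T cell receptor. Cd3e was 7.18, 18.6 and 38.7 in SNL plus UNC0638, 15.0, 9.43, 6.01 and 7.30 in SNL, and 0, 0, 1.56 and 1.54 in Sham libraries. Every ligated library was above every Sham library, while both ligated groups overlapped. SNL exceeded Sham by 2.64 (SE 0.55, adjusted p = 0.00229), and SNL plus UNC0638 differed from SNL by 0.90 (SE 0.59, adjusted p = 0.265). The Sham libraries held 3 reads by estimate, against 54 in SNL, a ratio of 11.7 with a 95% counting interval (exact, Clopper-Pearson) of 3.78 to 58.3. Such intervals cover counting error only.

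Cd247, the zeta chain, averaged 31.7 ± 17.5 in SNL plus UNC0638, 14.4 ± 6.91 in SNL and 2.57 ± 2.44 in Sham (SD, n = 3, 4 and 4). It was higher in SNL than in Sham by 2.21 (SE 0.48, adjusted p = 0.00292). Cd3d averaged 27.1 ± 15.0 in SNL plus UNC0638, 6.92 ± 4.19 in SNL and 2.03 ± 2.84 in Sham, and missed the threshold in SNL plus UNC0638 against SNL (1.85, SE 0.69, adjusted p = 0.0649) and in SNL against Sham (1.62, SE 0.64, adjusted p = 0.0545). Cd3g, which was not tested, reached 24.5 in SNL plus UNC0638, 7.52 in SNL and 2.27 in Sham.

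CD8 is the coreceptor of cytotoxic T cells and is also carried by rat NK cells. Cd8a was 31.4, 49.5 and 67.1 in SNL plus UNC0638, 23.5, 16.3, 6.76 and 10.9 in SNL, and 2.78, 1.14, 0 and 3.07 in Sham libraries. The 3 groups did not overlap. Cd8a was higher in SNL plus UNC0638 than in SNL by 1.77 (SE 0.55, adjusted p = 0.0325) and in SNL than in Sham by 2.56 (SE 0.51, adjusted p = 0.00172). The call between SNL plus UNC0638 and SNL was lost without SNL replicate 2, 3 or 4 or SNL plus UNC0638 replicate 2 or 3 (Cd8a adjusted p = 0.0557 to 0.11), and with a pseudocount of 0.1 (0.189).

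Cd8b, the partner chain, was 13.5, 17.0 and 19.3 in SNL plus UNC0638, 8.47, 6.0, 3.75 and 5.47 in SNL, and 1.39, 0, 0 and 0 in Sham libraries. Its groups did not overlap either. The differences were 1.38 (SE 0.45, adjusted p = 0.0395) for SNL plus UNC0638 against SNL and 2.43 (SE 0.41, adjusted p = 0.000694) for SNL against Sham. The Cd8b call between SNL plus UNC0638 and SNL was lost when any of the 4 SNL libraries was left out (adjusted p = 0.0531 to 0.0807), and with a pseudocount of 0.1 (0.258). It could not be made without any of the SNL plus UNC0638 libraries, since the gene then missed the filter. The Sham value rests on 1 read, and the SNL to Sham ratio of reads was 22.0 with a counting interval of 3.69 to 894.

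Cd4 is the coreceptor of helper T cells and in rats is also carried by macrophages. It was 562, 735 and 878 in SNL plus UNC0638, 847, 867, 679.5 and 694 in SNL, and 178, 197, 408 and 145 in Sham libraries. It was higher in SNL than in Sham by 1.84 (SE 0.27, adjusted p = 0.000315), without overlap. SNL plus UNC0638 overlapped SNL (-0.11, SE 0.29, adjusted p = 0.803). The 19 macrophage genes summed to 18010 to 33837 in SNL plus UNC0638, 19302 to 35143 in SNL and 3941 to 8571 in Sham libraries. Of the 19 tested, 18 were higher and 0 lower in SNL than in Sham, against 24.8% and 23.4% of all genes. In SNL plus UNC0638 against SNL, 3 were higher and 0 lower, against 13.5% and 14.3% of all genes. The part of macrophages in the Cd4 value was not tested.

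**Figure D1:**
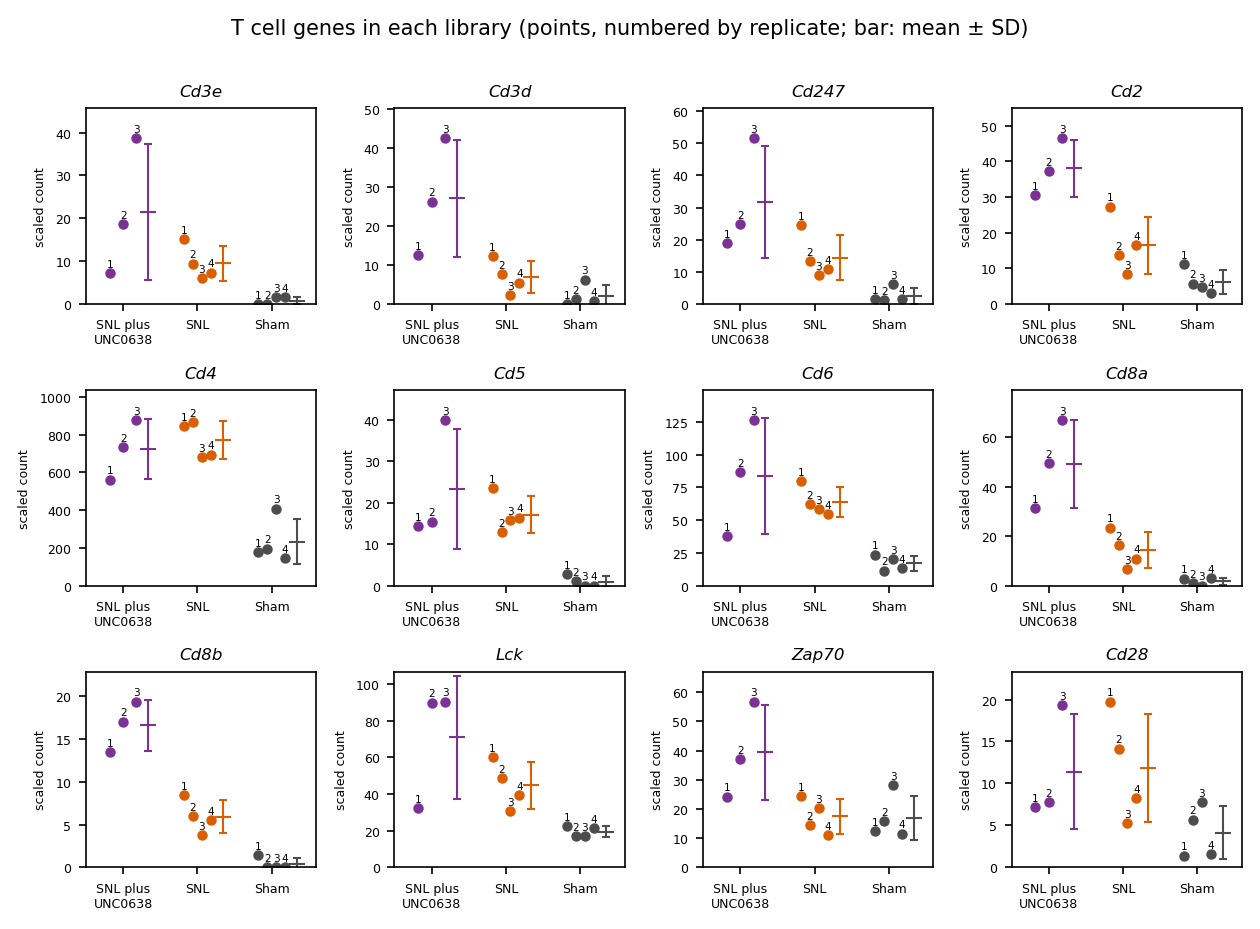
Scaled counts of the 12 tested T cell genes in each library (points, numbered by replicate), with the mean and SD of SNL plus UNC0638 (n = 3), SNL (n = 4) and Sham (n = 4) beside them. The groups of Cd8a and Cd8b do not overlap, while Zap70 in SNL lies among the Sham values.

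Cd5 and Cd6, neighbouring genes for receptors that tune T cell signalling, were both higher in SNL than in Sham, by 3.40 (SE 0.50, adjusted p = 0.000295) and 1.89 (SE 0.35, adjusted p = 0.00121). Cd5 averaged 23.3 ± 14.5 in SNL plus UNC0638, 17.1 ± 4.52 in SNL and 0.980 ± 1.32 in Sham. Cd6 averaged 83.6 ± 44.5 in SNL plus UNC0638, 63.9 ± 11.2 in SNL and 17.1 ± 5.83 in Sham. Cd2, an adhesion receptor of T and NK cells, was higher in SNL than in Sham by 1.29 (SE 0.41, adjusted p = 0.0207), with overlapping groups, a call lost without Sham replicate 4 (adjusted p = 0.0636) or SNL replicate 1 (adjusted p = 0.0671). None of these 3 passed the test between SNL plus UNC0638 and SNL. Cd2 came close (1.26, SE 0.44, adjusted p = 0.0508), without overlap, and was called in 7 of 22 alternatives. Cd5 (0.30, adjusted p = 0.694) and Cd6 (0.24, adjusted p = 0.659) overlapped.

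The kinases Lck and Zap70 carry the signal of the receptor. Lck averaged 70.8 ± 33.3 in SNL plus UNC0638, 44.7 ± 12.6 in SNL and 19.5 ± 2.79 in Sham, and was higher in SNL than in Sham by 1.12 (SE 0.33, adjusted p = 0.0155). Zap70 was 24.2, 37.1 and 56.8 in SNL plus UNC0638, 24.5, 14.6, 20.3 and 10.9 in SNL, and 12.5, 15.9, 28.0 and 11.5 in Sham libraries. SNL and Sham overlapped (0.07, SE 0.37, adjusted p = 0.887), and the sign of that difference turned without Sham replicate 1 or 4 or SNL replicate 1 or 3. SNL plus UNC0638 exceeded Sham by 1.17 (SE 0.40, adjusted p = 0.0274), a call lost without Sham replicate 1, 2 or 4 or SNL plus UNC0638 replicate 2 or 3 (adjusted p = 0.0527 to 0.13). The costimulatory receptor Cd28 averaged 11.4 ± 6.87 in SNL plus UNC0638, 11.8 ± 6.44 in SNL and 4.10 ± 3.16 in Sham and passed no test.

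Granzyme B gave the widest separation of SNL from Sham among the tested members and was lower with UNC0638. Gzmb was 2.69, 55.7 and 54.2 in SNL plus UNC0638, 219, 199, 114 and 126 in SNL, and 0, 0, 1.56 and 0.769 in Sham libraries. The 3 groups did not overlap, with SNL highest and SNL plus UNC0638 replicate 1 close to the Sham values. Relative to SNL, Gzmb in SNL plus UNC0638 fell by 2.82 on the log2 scale (SE 0.81, adjusted p = 0.0246), and it was higher in SNL than in Sham by 6.77 (SE 0.75, adjusted p = 0.00011). The estimated reads were 987 in SNL and 2 in Sham, a ratio of 319 with a counting interval of 88.2 to 2641. The related granzyme genes Gzmbl3 and Gzmc neighbour Gzmb in the later rat annotation, and the sources used here do not give how shared reads were counted. The call between SNL plus UNC0638 and SNL was lost without SNL replicate 1 (adjusted p = 0.0645) or 2 (adjusted p = 0.0601). Gzmb fell by 1.51 in SNL plus UNC0638 relative to SNL when the treated replicate 1, which held the muscle genes, was left out (SE 0.44, adjusted p = 0.0359).

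Perforin moved the other way under UNC0638. Prf1 was 13.5, 37.1 and 50.3 in SNL plus UNC0638, 13.2, 6.43, 6.76 and 9.12 in SNL, and 2.78, 1.14, 4.67 and 0.769 in Sham libraries. The groups did not overlap, although SNL plus UNC0638 replicate 1 was just above SNL replicate 1. Prf1 was higher in SNL plus UNC0638 than in SNL by 1.68 (SE 0.53, adjusted p = 0.0353) and in SNL than in Sham by 1.67 (SE 0.49, adjusted p = 0.0151). The Prf1 call between SNL plus UNC0638 and SNL was lost without SNL replicate 2, 3 or 4 or SNL plus UNC0638 replicate 2 or 3 (adjusted p = 0.0563 to 0.133), and with a pseudocount of 0.1 (0.0667). Prf1 was tested only because SNL plus UNC0638 was high, since outside that group it reached 10 only in SNL replicate 1.

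Nkg7, a granule membrane protein of cytotoxic cells, was 10.8, 18.6 and 23.2 in SNL plus UNC0638, 8.47, 3.86, 3.75 and 6.38 in SNL, and 2.78, 1.14, 0 and 1.54 in Sham libraries. It showed the same order of groups, without overlap, and reached 10 only in the SNL plus UNC0638 libraries, through which it was tested. The differences were 1.48 (SE 0.51, adjusted p = 0.0474) for SNL plus UNC0638 against SNL and 1.57 (SE 0.47, adjusted p = 0.0162) for SNL against Sham. The first of these Nkg7 calls was lost in 9 of 19 alternatives, among them without any of the 4 SNL libraries, without Sham replicate 2 or 4 and with a pseudocount of 0.1 (adjusted p up to 0.227), and the second without SNL replicate 1 (0.0519). Klrk1, the activating receptor NKG2D, was higher in SNL than in Sham by 2.41 (SE 0.51, adjusted p = 0.00254) and did not pass between SNL plus UNC0638 and SNL (1.08, SE 0.55, adjusted p = 0.158). Of the untested cytotoxic members, Gzma reached 1.56 in any library, Ncr1 5.16, Gzmk 10.3 and Klrd1 16.8.

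Tbx21 encodes T-bet, the factor of type 1 helper, cytotoxic and NK cells. It was 19.7, 37.1 and 42.6 in SNL plus UNC0638, 14.1, 6.0, 6.76 and 11.9 in SNL, and 1.39, 1.14, 4.67 and 2.31 in Sham libraries. The groups did not overlap. Tbx21 was higher in SNL plus UNC0638 than in SNL by 1.68 (SE 0.46, adjusted p = 0.019) and in SNL than in Sham by 1.70 (SE 0.42, adjusted p = 0.00631). The first of these Tbx21 calls was lost without SNL replicate 2 or SNL plus UNC0638 replicate 2 or 3 (adjusted p = 0.0552 to 0.0728). Tbx21 too was tested only because SNL plus UNC0638 was high, since outside that group it reached 10 only in SNL replicates 1 and 4. Gata3, the factor of type 2 helper cells, reached 5.26 and was not tested.

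Foxp3, the factor of regulatory T cells, averaged 74.6 ± 4.72 in SNL plus UNC0638, 65.5 ± 6.86 in SNL and 54.6 ± 7.90 in Sham and passed no test. Its gene overlaps Ccdc22 and Ppp1r3f in the later annotation. Ccdc22 was 218 to 279 in the 11 libraries, and the share of Foxp3 reads from its neighbours was not tested. Of the other receptors of regulatory and memory T cells, Ctla4 reached 9.03 and Cd27 29.7, and neither was tested.

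Il7r, the receptor of the lymphocyte survival factor IL-7, ran against the other members. It was 474, 299 and 309.6 in SNL plus UNC0638, 246, 173, 175 and 148 in SNL, and 689, 585, 352 and 607 in Sham libraries. SNL lay below the other 2 groups without overlap. Cd3e was 0 to 1.56 in the same Sham libraries, and which cells gave the Il7r values was not tested. Il7r was higher in SNL plus UNC0638 than in SNL by 0.95 (SE 0.25, adjusted p = 0.017), and relative to Sham it fell by 1.57 in SNL (SE 0.23, adjusted p = 0.000315). The first of these calls was lost without SNL plus UNC0638 replicate 1 (0.74, adjusted p = 0.0687). Il2rg, the receptor chain shared by IL-2, IL-7 and IL-15, was higher in SNL than in Sham by 1.13 (SE 0.25, adjusted p = 0.00352).

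The defining B cell genes were near 0. Ms4a1 was 0, 3.09 and 5.16 in SNL plus UNC0638, 2.82, 1.71, 3.00 and 0 in SNL, and 1.39, 0, 0 and 1.54 in Sham libraries. Cd79b reached 9.03 and Pax5 4.72 in any library. The 3 tested B cell members were higher in SNL than in Sham: the kinase Blk by 2.24 (SE 0.62, adjusted p = 0.0108), the inhibitory lectin Cd22 by 1.87 (SE 0.43, adjusted p = 0.00413) and the complement receptor Cr2 by 2.97 (SE 0.62, adjusted p = 0.00236). None passed between SNL plus UNC0638 and SNL. Cr2 was 3.59, 10.8 and 18.1 in SNL plus UNC0638, 39.5, 31.3, 18.8 and 9.12 in SNL, and 2.78, 3.41, 3.12 and 0 in Sham libraries.

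**Figure D2:**
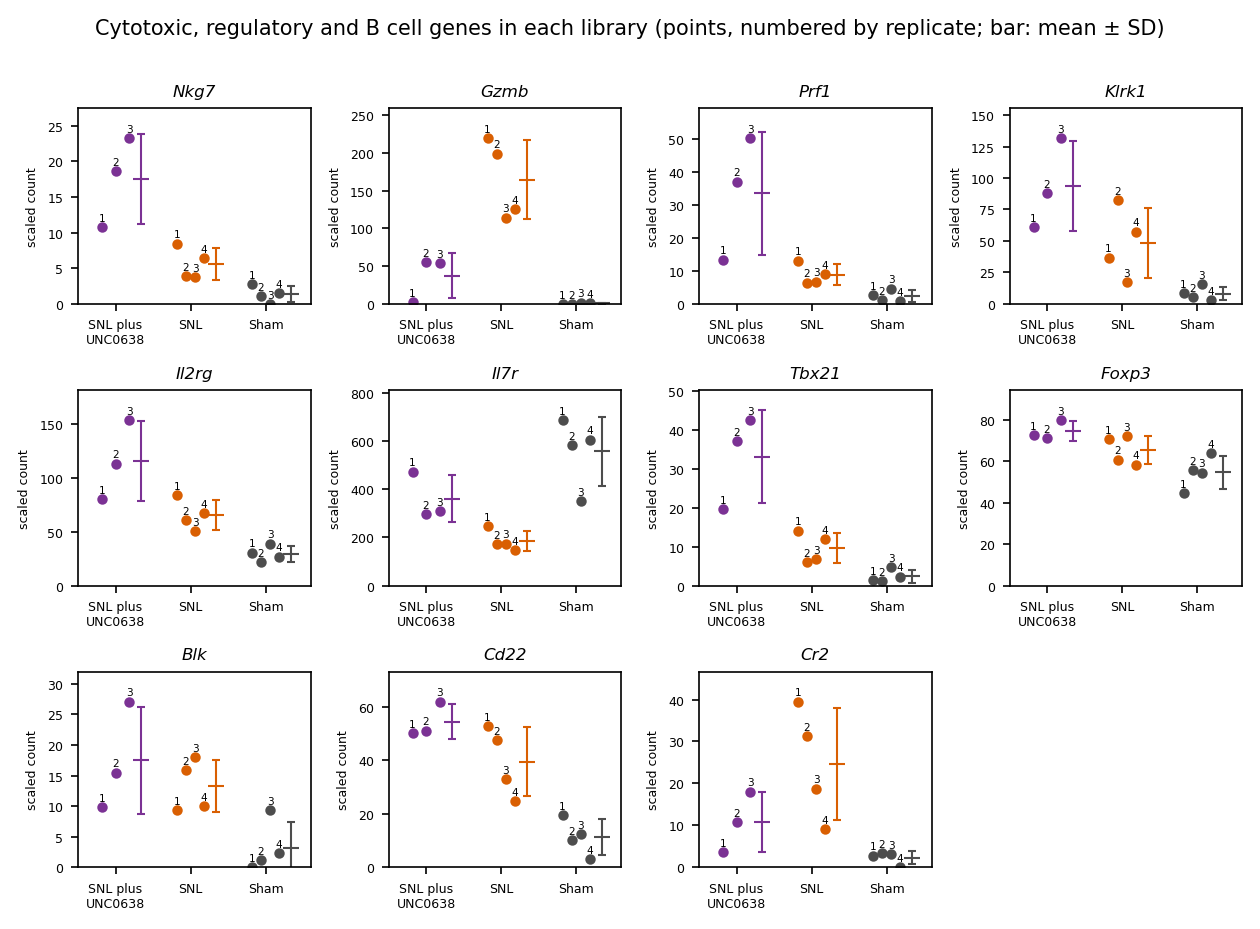
Scaled counts of the 11 other tested members in each library (points, numbered by replicate), with the mean and SD of SNL plus UNC0638 (n = 3), SNL (n = 4) and Sham (n = 4). Gzmb is highest in SNL, Prf1, Nkg7 and Tbx21 are highest in SNL plus UNC0638, and Il7r is lowest in SNL.

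Between SNL plus UNC0638 and SNL, 6 of the 23 tested members were higher (Cd8a, Cd8b, Nkg7, Prf1, Il7r and Tbx21), 1 was lower (Gzmb) and 16 did not pass. Among all genes, 27.8% were called, 13.5% higher and 14.3% lower. The groups did not overlap for 8 members that were higher and 1 that was lower, against 17.7% and 19.9% of all genes. The median log2 fold change was 0.90 over the members. Cd8b and Nkg7 reached 10 only in the 3 SNL plus UNC0638 libraries. Outside that group Prf1 reached 10 only in SNL replicate 1 (13.2) and Tbx21 only in SNL replicates 1 and 4 (14.1 and 11.9). Cd3d, higher without overlap but not called, did so only in SNL replicate 1 (12.2). All of these genes were therefore tested because the SNL plus UNC0638 group was high. The count therefore describes the members without supporting a difference. Of the 8 members that reached 10 in at least 3 Sham libraries, 1 was higher, 0 were lower and 7 did not pass. The count of 6 rested on single libraries: 1 member was higher without SNL replicate 2, without SNL plus UNC0638 replicate 2 or without SNL plus UNC0638 replicate 3, 2 were higher without SNL replicate 3 or 4, and 10 without Sham replicate 3. SNL plus UNC0638 replicate 3 was the highest of the 11 libraries for 19 of the 23 members, and replicate 1, with the muscle genes, was the lowest of its group for 21. Without replicate 1 the count was also 6, of different genes: Cd8a, Prf1 and Tbx21 kept their call, Lck, Il2rg and Zap70 gained one, Il7r lost it, and Cd8b and Nkg7 missed the filter. Other cell types moved in the same comparison. The 13 neutrophil genes summed to 627 to 879 in SNL plus UNC0638 and 119 to 301 in SNL libraries, with 2 of 7 tested higher, Csf3r by 3.30 and Cxcr2 by 2.12. The 4 red blood cell genes summed to 235 to 507 in SNL plus UNC0638 and 578 to 1577 in SNL libraries, with 3 of 4 lower. Their part in the members' values was not tested.

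With no filter on low values, 34 members and 14841 genes were tested. SNL plus UNC0638 then had 7 members higher and 2 lower than SNL, against 12.0% and 11.3% of genes, and SNL had 19 higher and 1 lower than Sham, against 20.6% and 18.7%. SNL plus UNC0638 had 24 higher and 0 lower than Sham, against 22.8% and 20.7%. The B cell factor Pax5 was 0, 0 and 1.29 in SNL plus UNC0638, 2.82, 4.72, 2.25 and 2.74 in SNL, and 0, 1.14, 0 and 0.769 in Sham libraries. It was called lower in SNL plus UNC0638 than in SNL and higher in SNL than in Sham, on a few reads per library. Klrd1, the NK receptor chain CD94, was called higher in SNL plus UNC0638 than in SNL (1.5, SE 0.43, adjusted p = 0.0264).

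SNL plus UNC0638 had higher values than Sham for 20 of the 23 and a lower value for 0, with Cd28, Il7r and Foxp3 not passing. At an unadjusted p under 0.05, 22 were higher and 1 was lower by limma, and limma-voom also gave 0 lower calls. Il7r became a lower call, 1 member, without Sham replicate 3, SNL replicate 1 or SNL plus UNC0638 replicate 1. Among all genes, 51.5% were called, 25.5% higher and 26.0% lower. The groups did not overlap for 20 members that were higher and 0 that were lower, against 23.4% and 24.9% of all genes. For 13 of the 23, every Sham library was under 10, so here too the count describes the members without supporting a difference. Of the 8 members that reached 10 in at least 3 Sham libraries, 6 were higher, 0 were lower and 2 did not pass. This comparison shares its Sham libraries with SNL against Sham and its treated libraries with SNL plus UNC0638 against SNL.

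**Figure D3:**
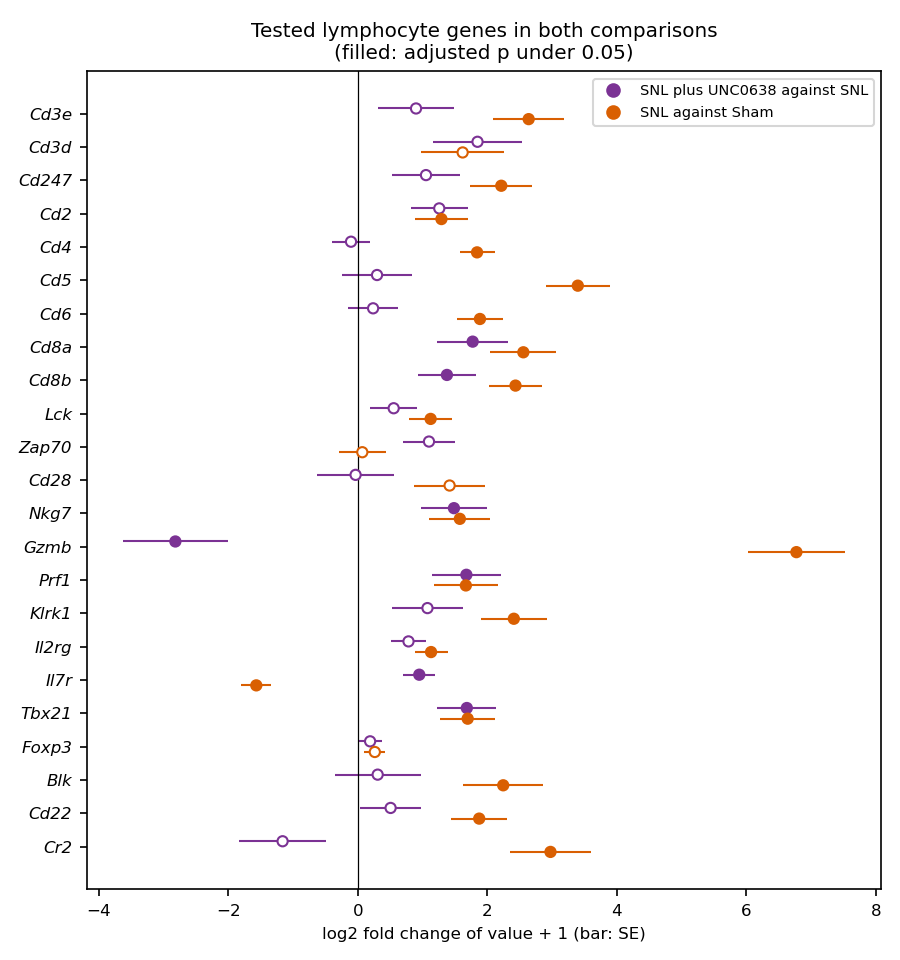
Log2 fold changes of the 23 tested members with their SE, for SNL plus UNC0638 against SNL and SNL against Sham. Filled points have an adjusted p under 0.05, and Gzmb and Il7r are the 2 members called in opposite directions in the 2 comparisons.

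The direction in which the summed T cell genes differed between SNL and Sham, relative to other leukocyte genes, depended on the denominator. The 12 T cell genes without Cd4 came to 5.82, 8.12 and 10.2% of the summed leukocyte genes in SNL plus UNC0638, 3.77 to 5.28% in SNL and 1.97 to 3.31% in Sham libraries, which put SNL above Sham. As a percentage of Ptprc, the pan-leukocyte protein CD45, they came to 39.1 to 45.8% in SNL plus UNC0638, 32.6 to 43.9% in SNL and 49.2 to 63.7% in Sham, which put SNL below Sham. As a percentage of the summed macrophage genes they came to 1.29 to 1.84% in SNL plus UNC0638, 0.747 to 0.929% in SNL and 1.09 to 1.72% in Sham, again with SNL below Sham. Ptprc was chosen as a denominator after the first ratios had been seen. Cd48 made up 38.1%, Coro1a 27.4% and Ptprc 4.21% of the leukocyte sum in Sham.

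The CD8 genes were higher in SNL plus UNC0638 than in SNL without overlap by each denominator. They came to 1.12 to 1.41% of the leukocyte sum in SNL plus UNC0638 and 0.282 to 0.517% in SNL. Relative to Ptprc they came to 6.25 to 7.52% in SNL plus UNC0638 and 2.71 to 4.07% in SNL. Relative to the macrophage sum they came to 0.202 to 0.255% in SNL plus UNC0638 and 0.0545 to 0.0910% in SNL. The CD3 and cytotoxic sums overlapped between SNL plus UNC0638 and SNL relative to Ptprc and did not overlap by the other 2 denominators. The SNL mean over the Sham mean, by leukocyte sum, macrophage sum and Ptprc, was 2.94, 1.13 and 1.21 for the CD3 genes. It was 6.30, 1.59 and 1.91 for the CD8 genes and 2.87, 1.01 and 1.11 for the cytotoxic genes. SNL and Sham overlapped in all of these except the CD8 genes by leukocyte sum. These ratios are descriptions with no test.

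**Figure D4:**
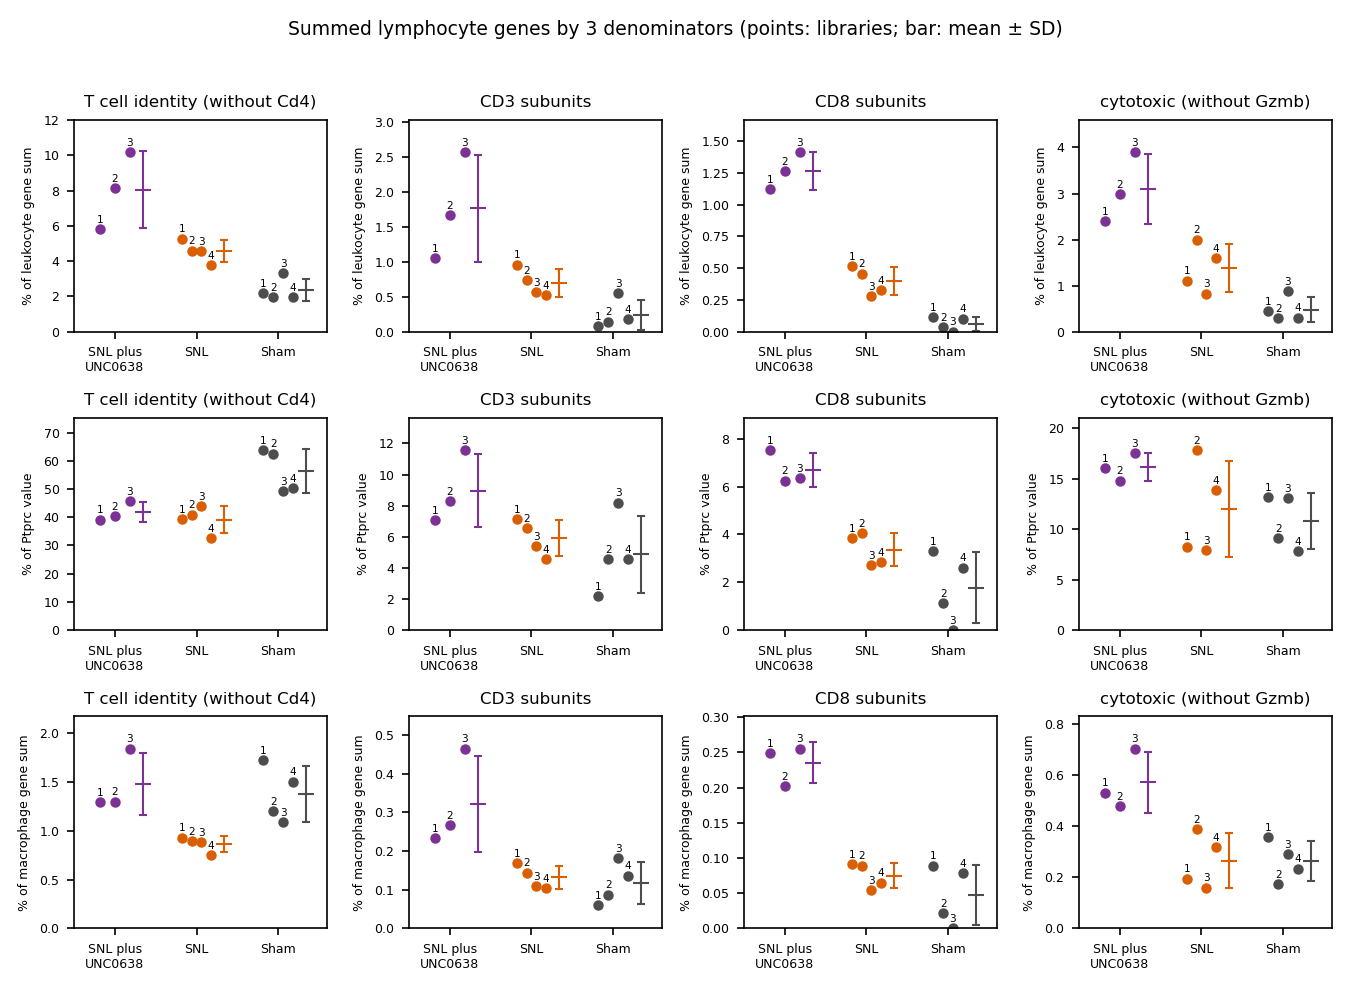
Summed T cell genes without Cd4, CD3 genes, CD8 genes and cytotoxic genes without Gzmb in each library, in % of the leukocyte gene sum (top), of Ptprc (middle) and of the macrophage gene sum (bottom), with the mean and SD of SNL plus UNC0638 (n = 3), SNL (n = 4) and Sham (n = 4). The T cell genes in SNL lie above Sham in the top row and below it in the middle and bottom rows.

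Other genes of T cell receptor signalling changed in both directions. Of 20 tested, 4 were higher and 0 lower in SNL plus UNC0638 than in SNL, and 10 were higher and 3 lower in SNL than in Sham. The shares over all genes were 13.5% higher and 14.3% lower in SNL plus UNC0638 than in SNL, and 24.8% and 23.4% in SNL than in Sham. Rasgrp1, an activator of Ras, averaged 330.3 ± 109 in SNL plus UNC0638, 144 ± 33.5 in SNL and 353 ± 83.9 in Sham, an order like that of Il7r. Of 7 other effector genes tested, 2 were higher with UNC0638, Tnf (2.67, SE 0.35, adjusted p = 0.00076) and the Fc receptor Fcgr3a (1.11, SE 0.35, adjusted p = 0.0334). Both are also expressed by myeloid cells. Of 17 other B and plasma cell genes, 3 were higher and 1 lower in SNL plus UNC0638 than in SNL, near the shares over all genes. In SNL against Sham, 11 of the 17 were higher and 1 lower, against 24.8% and 23.4% of all genes. In SNL plus UNC0638 against Sham, 14 were higher and 0 lower, against 25.5% and 26.0% of all genes. Mzb1, a plasma cell chaperone, averaged 40.6 ± 27.0 in SNL plus UNC0638, 2.88 ± 3.14 in SNL and 11.5 ± 6.75 in Sham.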

How the data were processed

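Per the submitters' processing notes, reads were aligned to rn4 with TopHat2 2.0.9, and Cuffdiff 2.1.1 is also named. Per the labels' protocols, libraries were stranded total RNA depleted of ribosomal RNA, from RNA extracted with either of 2 reagents. The deposited values are a signal: gene counts that the authors scaled by 1 factor per library, of which about 99% of the low values are whole multiples of a step (within 0.02 of a step). The sources used here give neither the annotation nor the handling of strand and shared reads.

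Genes that reached 10 in 3 or more libraries entered the test, on log2(value + 1) with limma 3.58.1 (trend, robust) in R 4.3.3, with all 11 libraries in 1 fit. Fold changes on this scale understate changes of low genes. The steps were tested on simulated data, with changes placed only in better expressed genes and the same spread for every gene. That test does not cover members at a few reads. Every member was named. Library values are given for tested members called between SNL plus UNC0638 and SNL, for the lineage genes Cd3e, Cd8a, Cd4 and Ms4a1, and for a few others. They had also been planned for members called against Sham, many of which are given by group means or fold changes only. The members and lists were chosen with earlier results of these data known. A withheld item is not reported here.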

Additional observations from a re-analysis of the deposited data

Results flagged for a closer look

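In 56 groups of 4 libraries examined, 3 had a library far from the others, where chance flags about 1 in 20. Cd247 was 6.23 in Sham replicate 3, against 1.14 to 1.54 in the other Sham libraries. Cd8b was 1.39 in Sham replicate 1, which is 1 read, against 0 in the others. The summed cytokine receptors were 330.1 in SNL replicate 1, against 215 to 233 in the other SNL libraries.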

How the results depend on the processing

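Of 1482 values of single members under 22 alternatives, 1370 kept direction and call, 55 lost the call, 46 gained one and 11 turned round. Turned values were Zap70 in SNL against Sham without Sham replicate 1 or 4 (-0.041 and -0.077) or SNL replicate 1 or 3 (-0.10 and -0.016), and, in SNL plus UNC0638 against SNL, Cd4 (0.066) and Cd28 (0.20) without SNL plus UNC0638 replicate 1, Cd28 without replicate 2 (0.15) and by limma-voom (0.034), and Cd5 (-0.16), Cd6 (-0.14) and Blk (-0.050) without replicate 3. The log2 ratio of the summed T cell genes without Cd4 in SNL to Sham turned to -0.67 relative to macrophage genes and -0.53 relative to Ptprc. Ptprc was a denominator added after seeing the data. With a library left out, these differences ran from -0.10 to 0.33 for Zap70, -0.25 to 0.066 for Cd4, -0.16 to 0.55 for Cd5, -0.14 to 0.72 for Cd6, -0.33 to 0.20 for Cd28 and -0.050 to 0.63 for Blk.

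In SNL plus UNC0638 against SNL, members called higher were 2 with a pseudocount of 0.1, 10 with one of 5 and 10 by limma-voom, and 1 to 10 with a library left out. Members called lower were 2 with no filter, 0 with a pseudocount of 0.1, and 0 to 1 with a library left out. Over all genes, 2789 were higher without Sham and SNL replicates 3, 950 to 2214 with a library left out, and 1137 were lower by limma-voom and 1031 to 2257 with a library left out. In SNL plus UNC0638 against Sham, 1856 genes were lower by limma-voom, and members called lower were 1 without Sham and SNL replicates 3 and 0 to 1 with a library left out.

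Pairing by replicate number was neither shown nor excluded, since each group had only 3 or 4 libraries. Same-numbered libraries correlated at -0.446 to 0.431, and 3 of 11 correlated best with their own number. Between Sham and SNL, libraries numbered 1, 2, 3 and 4 correlated at 0.187, 0.004, 0.431 and 0.096. With the replicate block, SNL plus UNC0638 against SNL gave 1056 genes higher and 1073 lower and 2 members higher, and SNL plus UNC0638 against Sham gave 1 member lower. edgeR and DESeq2 were not run, since whole reads were not recovered for every low value. limma-voom on estimated reads and the joint omission of Sham and SNL replicates 3 were chosen after seeing the data. The smallest libraries, near 6127881 reads, limit what can be said of members at a few reads.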

Other observations

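Of 25 homing and chemokine genes of lymphocytes tested, 6 were higher and 0 lower in SNL plus UNC0638 than in SNL, where 13.5% of all genes were higher and 14.3% lower. In SNL against Sham, 16 of the 25 were higher and 1 was lower, where 24.8% of all genes were higher and 23.4% lower. Cxcl13, the B cell attractant, was 294, 534 and 1265 in SNL plus UNC0638, 41.4, 79.7, 76.6 and 62.9 in SNL, and 15.3, 30.7, 73.2 and 22.3 in Sham libraries. It was higher in SNL plus UNC0638 than in SNL by 3.19 (SE 0.53, adjusted p = 0.00214).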
